A study of Mus musculus with 4 samples.

Results

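The major urinary protein (Mup) genes were followed one paralog at a time in the livers of mice fed a high-fat diet (HFD) with and without ADAR2. The 10 genes described are Mup7, Mup9, Mup11, Mup15, Mup17, Mup18, Mup19, Mup20, Mup3 and Mup21, out of 22 Mup genes and 25655 genes in the table. They were chosen by name, as paralogs that were higher and paralogs that stayed level in HFD-KO against HFD-WT livers, so their differences between genotypes are given as a description, with no p-value, and counts of those past a threshold describe the choice. ADAR2, encoded by Adarb1, is an enzyme that edits adenosine to inosine in double-stranded RNA. HFD-WT mice were ADAR2+/+/GluR-B R/R and HFD-KO mice were ADAR2-/-/GluR-B R/R, so the controls also carried the GluR-B R/R allele, a glutamate receptor gene altered to encode the edited subunit, without which loss of ADAR2 is lethal in young mice. The deletion was carried by the whole animal and the background was mixed. Feeding of the HFD began at 5 weeks of age and lasted 12 weeks in both genotypes, the study's later experiments used males, and each group has 2 liver libraries. The study's text gives more mice per group than there are libraries, but not how mice were assigned to libraries. The p-values therefore measure the spread between these libraries, and how much of it is technical was not tested. Spread between replicates was compared with counting error by a chi-square divided by its degrees of freedom. This was 10.86 in HFD-WT and 43.39 in HFD-KO livers, so both pairs differed by more than counting error, the HFD-KO pair more strongly.

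MUPs are small secreted lipocalins. The liver makes them in large amounts, they pass through the kidney into urine, and there they bind small volatile pheromones and release them slowly. Their genes lie in a single cluster on chromosome 4 and include a large set of recent, nearly identical copies and a few older, more divergent ones, among them Mup20, which encodes the male pheromone darcin. In mouse liver their transcription is known to respond to the pulses of growth hormone that differ between the sexes, and also to androgen, thyroid hormone and glucocorticoid.

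Adarb1, the targeted gene, had 15.7 and 19.8 CPM (read counts scaled to the size of each library, after TMM normalization) in HFD-WT and 6.23 and 9.55 CPM in HFD-KO livers. Both HFD-KO libraries lay below both HFD-WT libraries, and 164 and 228 reads remained on the gene, whose position within it a gene count does not show. The log2 fold change was -1.17 ± 0.20 (SE, n = 2 per group; edgeR quasi-likelihood adjusted p = 0.159). The 4 libraries held between 24480798 and 28691330 counts, at which 3 counts correspond to between 0.104 and 0.126 CPM. The labelled tissue was checked on 9 hepatocyte markers, which summed to between 86759 and 102677 CPM with none at 0. In such bulk tissue, fewer cells of a type and less RNA per cell cannot be told apart.

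The reported Mup genes lie on the minus strand of chromosome 4 between positions 60066469 and 62069100 (GRCm39, the build of the positions in the table). The copies are so alike that their sequences have to be seen before their counts are read. The 250 bases before the annotated start are shown for 6 genes, from RefSeq (GRCm38.p6): for Mup15, Mup17 and Mup9, which were higher in HFD-KO livers, for their close relative Mup18, which was not, and for the divergent Mup3 and Mup21. The capitals mark TATATAA, the TATA-box letters.
Mup15, chr4:61439705-61439954, minus strand: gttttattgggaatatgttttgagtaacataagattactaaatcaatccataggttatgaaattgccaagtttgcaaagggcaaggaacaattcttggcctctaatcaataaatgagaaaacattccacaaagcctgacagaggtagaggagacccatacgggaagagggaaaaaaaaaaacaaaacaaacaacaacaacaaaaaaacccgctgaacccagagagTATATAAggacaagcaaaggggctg
Mup17, chr4:61595833-61596082, minus strand: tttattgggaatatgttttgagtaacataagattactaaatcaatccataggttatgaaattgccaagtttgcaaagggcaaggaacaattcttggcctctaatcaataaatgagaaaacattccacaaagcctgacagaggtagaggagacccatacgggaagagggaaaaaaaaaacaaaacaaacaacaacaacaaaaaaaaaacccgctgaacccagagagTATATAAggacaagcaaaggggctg
Mup9, chr4:60421953-60422202, minus strand: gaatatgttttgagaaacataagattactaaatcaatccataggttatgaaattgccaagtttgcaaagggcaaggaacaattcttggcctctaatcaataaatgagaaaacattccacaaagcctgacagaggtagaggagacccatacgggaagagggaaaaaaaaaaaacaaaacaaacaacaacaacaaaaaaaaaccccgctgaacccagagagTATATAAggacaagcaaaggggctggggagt
Mup18, chr4:61674095-61674344, minus strand: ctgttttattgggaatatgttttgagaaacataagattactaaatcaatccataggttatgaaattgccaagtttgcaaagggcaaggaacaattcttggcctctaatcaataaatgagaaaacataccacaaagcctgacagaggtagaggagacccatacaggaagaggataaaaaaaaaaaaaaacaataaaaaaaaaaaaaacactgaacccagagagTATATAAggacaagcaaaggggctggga
Mup3, chr4:62087318-62087567, minus strand: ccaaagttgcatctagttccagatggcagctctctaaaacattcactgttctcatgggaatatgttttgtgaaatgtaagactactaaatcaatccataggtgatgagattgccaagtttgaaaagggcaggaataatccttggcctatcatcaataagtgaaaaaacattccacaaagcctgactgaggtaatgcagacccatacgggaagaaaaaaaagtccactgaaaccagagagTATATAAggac
Mup21, chr4:62150842-62151091, minus strand: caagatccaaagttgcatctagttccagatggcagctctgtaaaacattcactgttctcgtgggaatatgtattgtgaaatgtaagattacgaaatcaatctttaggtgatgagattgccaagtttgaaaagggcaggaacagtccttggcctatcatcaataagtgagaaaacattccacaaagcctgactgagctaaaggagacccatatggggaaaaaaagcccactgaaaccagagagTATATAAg

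RefSeq entries were matched for 9 of the 10 genes, and Mup20 was not matched. Aligned bases leave out gaps and unpaired ends. The windows of Mup15 and Mup17 had no mismatch over 247 aligned bases, although their runs of A differ in length. That of Mup9 matched that of Mup15 at 239 of 240 aligned bases. Mup18 matched Mup17 at 237 of 243 aligned bases and Mup15 at 236 of 245. A gene counted as level and genes counted as more than 3-fold higher thus had promoter windows 97.5% and 96.3% identical, gaps left out. How reads shared among these copies were counted is not given, so their counts may not be the output of single promoters. Mup3 and Mup21 formed a pair of their own, with 229 of 244 aligned bases identical, and matched the windows of the other 7 genes at between 82.9% and 89.1%.

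TATATAA was found in the window of 7 of the 9 genes, on the coding strand, against 3.04% of 32851 mouse promoter windows of the same kind. It began at position -25 from the annotated start in Mup15 and Mup17, at -28 in Mup18, at -31 in Mup9 and Mup19, at -11 in Mup3 and at -8 in Mup21. The windows of Mup7 and Mup11 did not hold these letters. That of Mup11 ended within the same surrounding sequence, and that of Mup7 ended before the stretch in which its relatives hold them. Neither window could therefore show them. CCAAT, the letters of the CCAAT box, lay on the opposite strand in Mup7, Mup11, Mup15, Mup17 and Mup18, against 33.9% of promoter windows. The window of Mup9 began just after the stretch that holds CCAAT in Mup15, Mup17 and Mup18, so it could not show that match. A further 2 motifs were searched on both strands, TTCNNNGAA (letters bound by STAT5) and TTGCNNAA (letters bound by C/EBP factors). Neither was found in a window of the 9 genes, against 7.02% and 9.56% of all promoter windows. No 2 of the motif matches overlapped.

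The transcripts divided the genes in the same way as the promoters. Among Mup7, Mup9, Mup11, Mup15, Mup17, Mup18 and Mup19 the longest transcripts were up to 99.7% identical, gaps left out (Mup9 and Mup19, with 865 aligned bases alike and 3 unlike). A read of 100 bases therefore often fits several of them. The share of 100-base windows found in no other gene's transcripts was 40.6% for Mup17, 18.4% for Mup7, 16.5% for Mup11, 14.1% for Mup9, 12.9% for Mup18, 2.66% for Mup15 and 0% for Mup19. Mup3 had 97.1% unique windows and Mup21 had 95.5%, the rest being shared between the pair. Mup20 had 61.2%, and the other windows of Mup20 were shared with the pseudogene Mup-ps19. How reads that align to several copies were counted is not given in the sources used here, so counts of the 7 near-identical genes are uncertain as values of single copies, while those of Mup3, Mup21 and, in part, Mup20 rest on their own sequence.

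Expression of the 10 genes then fell into 3 patterns. Mup7, Mup9, Mup11, Mup15, Mup17 and Mup19 lay higher in each HFD-KO library than in any HFD-WT library, by between 2.85-fold and 5.03-fold in the means. Mup18 had nearly the same level in all libraries. The divergent Mup20, Mup3 and Mup21 differed by at most 1.35-fold between the group means. In all, 7 of the 10 genes lay higher in both HFD-KO libraries, against 20.5% of all genes tested (20.3% lay lower in both). By edgeR 3 of the 10 passed an adjusted p under 0.05, all higher, where 0.054% of all genes tested were called higher, 0.0231% lower and 0.0771% in either direction. Since the genes were chosen on this contrast, these counts describe the choice. The median log2 fold change of the 10 genes was 1.54 beside 0.0068 over the 12967 genes tested.

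Mup15 is one of the recent copies. HFD-WT livers had 69.6 and 61.4 CPM of it and HFD-KO livers 265 and 353 CPM. The groups stood far apart, with replicates that differed by 1.13-fold in HFD-WT and by 1.33-fold in HFD-KO against 4.72-fold between the group means. The log2 fold change was 2.24 ± 0.15 (SE, n = 2 per group). Because 2.66% of its windows were unique, this value is shared with its relatives, above all with Mup2, which held 67.8% of its windows.

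Mup17 has the largest share of unique windows among the near-identical copies. It had 123 and 107 CPM in HFD-WT and 388 and 438 CPM in HFD-KO livers (log2 fold change 1.84 ± 0.11, SE, n = 2 per group). Replicates differed by 1.16-fold in HFD-WT and by 1.13-fold in HFD-KO, so the groups stood apart by much more than their spread. Mup9 had 73.2 and 53.3 CPM in HFD-WT and 183 and 192 CPM in HFD-KO livers (log2 fold change 1.57 ± 0.14). How many of the 10 passed the adjusted threshold, a description since they were chosen on this contrast, depended on the fit. The 3 were Mup15, Mup17 and Mup9, and other fits gave 5 higher by DESeq2's Wald test (0.424% of all genes), 6 without a filter on low counts (0.468%) and 5 with a replicate block (0.0925%). With 1 library left out there were 0 without HFD-WT 2 (0% of all genes) and 5 higher without HFD-WT 1 (0.0676%). Without HFD-KO 1 there were 6 higher and 2 lower (5.31% in either direction), and without HFD-KO 2 there were 7 higher (1.69%).

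The other 3 higher copies varied more between replicates. Mup7 had 278 and 105 CPM in HFD-WT and 1110 and 818 CPM in HFD-KO livers, with a log2 fold change of 2.33 ± 0.40 (SE, n = 2 per group). The HFD-WT libraries differed from each other by 2.64-fold, and the log2 fold change was 1.80 without HFD-WT 2 and 3.19 without HFD-WT 1. Mup11 had 701 and 451 CPM in HFD-WT and 2245 and 1413 CPM in HFD-KO livers (log2 fold change 1.67 ± 0.26). Mup19, which has no window of its own, had 951 and 613 CPM in HFD-WT and 2092 and 2367 CPM in HFD-KO livers (log2 fold change 1.51 ± 0.20). In all 3 genes HFD-WT 1 was above HFD-WT 2, as it was for 9 of the 10 genes, the exception being Mup21, whereas HFD-KO 1 was above HFD-KO 2 in 5 of the 10.

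Mup18 stood among these copies in sequence but not in its values. It had 1247 and 1112 CPM in HFD-WT and 1106 and 1245 CPM in HFD-KO livers. The groups overlapped, and the ratio of the group means was 0.997 (log2 fold change -0.0049 ± 0.11, SE, n = 2 per group). Under each library left out in turn its log2 fold change remained between -0.09 and 0.08. It shared 68.0% of its windows with Mup19, whose level was 2.85-fold higher in HFD-KO livers.

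Mup20 was the most abundant of the 10 genes. It had 6585 and 6063 CPM in HFD-WT and 6519 and 3784 CPM in HFD-KO livers. HFD-KO 1 was within the range of the HFD-WT libraries and HFD-KO 2 was lower than all others, so the groups overlapped (log2 fold change -0.30 ± 0.24, SE, n = 2 per group). Mup21, with few reads, was 30.2 and 34.9 CPM in HFD-WT and 37.1 and 18.0 CPM in HFD-KO livers (log2 fold change -0.24 ± 0.28), and again HFD-KO 2 was lowest. The direction of both genes rested on that library: without HFD-KO 2 the log2 fold change was 0.04 for Mup20 and 0.19 for Mup21, and without HFD-KO 1 it was -0.74 and -0.85.

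Mup3 is the nearest relative of Mup21 and, with 97.1% unique windows, the gene whose counts can best be taken as its own. It had 2196 and 2012 CPM in HFD-WT and 3263 and 2410 CPM in HFD-KO livers. Both HFD-KO libraries were above both HFD-WT libraries, but HFD-KO 2 exceeded HFD-WT 1 by less than the HFD-KO libraries differed from each other (1.35-fold). Its log2 fold change was 0.43 ± 0.16 (SE, n = 2 per group), the smallest of the 7 genes with separate groups.

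**Figure D1:**
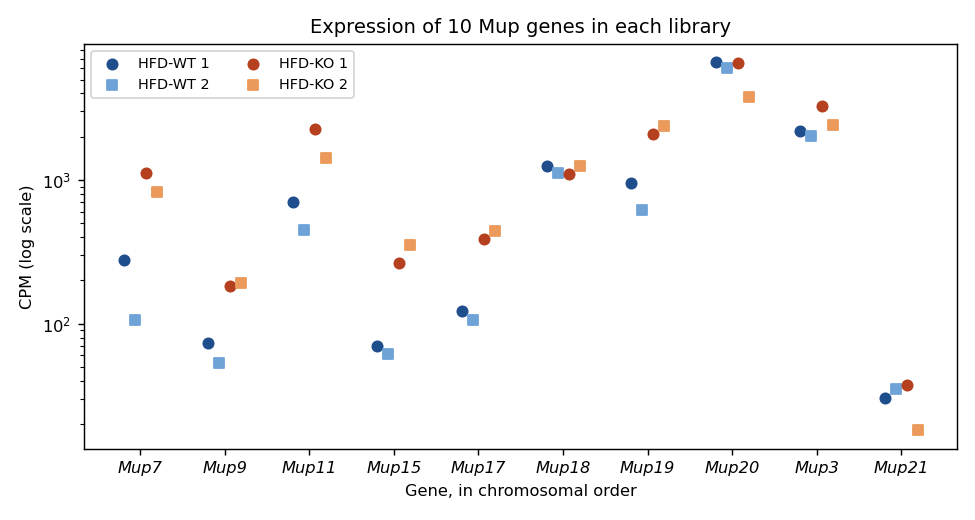
Expression of the 10 Mup genes in CPM (log axis) in each of the 2 HFD-WT (blue) and 2 HFD-KO (red and orange) libraries, with 1 point per library and genes in chromosomal order. Mup7, Mup9, Mup11, Mup15, Mup17 and Mup19 show both HFD-KO points well above both HFD-WT points, the 4 points of Mup18 lie between 1106 and 1247 CPM, and the HFD-KO 2 points of Mup20 (3784 CPM) and Mup21 (18.0 CPM) lie below the other 3.

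Levels were then ordered per length, as mean CPM per kilobase within each group (± SD, n = 2). In HFD-WT livers the order was Mup20 (6298 ± 368), Mup3 (1821 ± 113), Mup18 (1172 ± 95.4), Mup19 (679 ± 207), Mup11 (512 ± 157), Mup7 (171 ± 109), Mup17 (115 ± 11.7), Mup15 (65.4 ± 5.80), Mup9 (57.0 ± 12.7) and Mup21 (44.5 ± 4.56). The libraries of Mup19 and Mup11, of Mup7 and Mup17, and of Mup15 and Mup9 overlapped, so these neighbours did not differ beyond their spread. In HFD-KO livers it was Mup20 (5131 ± 1927), Mup3 (2455 ± 522), Mup19 (1937 ± 169), Mup11 (1624 ± 523), Mup18 (1168 ± 98.2), Mup7 (863 ± 185), Mup17 (412 ± 35.4), Mup15 (309 ± 62.2), Mup9 (169 ± 5.56) and Mup21 (37.7 ± 18.4), and among neighbours Mup19 and Mup11 overlapped. Mup18 was thus above Mup19 and Mup11 in HFD-WT and below both in HFD-KO livers, while by group mean the other 9 genes kept their order among themselves. For the near-identical copies this order depends on how shared reads were divided, which is not given. Mup20 exceeded Mup21 by between 127-fold and 159-fold within a library.

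The paralog make-up of the Mup reads differed accordingly. All 22 Mup genes together took 1.77% and 1.50% of the counts in HFD-WT and 2.59% and 1.94% in HFD-KO livers. Of these reads, Mup20 held 37.6% and 41.4% in HFD-WT and 25.0% and 19.0% in HFD-KO livers. Mup18, level in CPM, held 7.13% and 7.58% in HFD-WT and 4.23% and 6.26% in HFD-KO livers.

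Mup19 held 5.43% and 4.19% of the Mup reads in HFD-WT and 8.01% and 11.9% in HFD-KO livers, and Mup15 held 0.398% and 0.419% against 1.01% and 1.77%. In all, 6 of the 10 genes had a higher share in both HFD-KO libraries, and they were the 6 with the larger fold changes. The other 4, Mup18, Mup20, Mup3 and Mup21, had a lower share, which for Mup3 differed little (12.5% and 13.7% against 12.5% and 12.1%). The 95% Wilson intervals of these shares reached at most 0.152 percentage points beyond the value, and they cover counting error only.

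**Figure D2:**
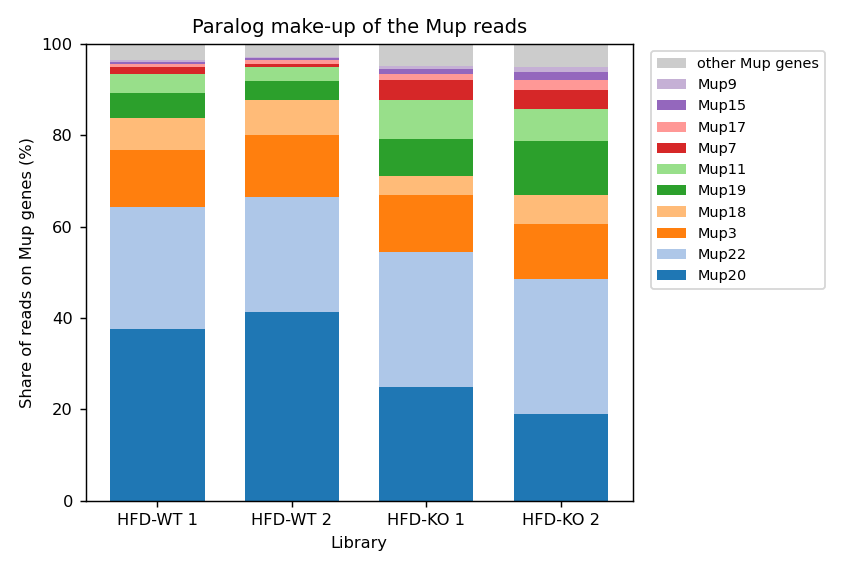
Share of the reads on the 22 Mup genes (%) taken by each paralog in each of the 4 libraries, as stacked bars, with Mup21 and the rarer copies in grey. The lowest segment, Mup20, is 37.6% and 41.4% of the HFD-WT bars and 25.0% and 19.0% of the HFD-KO bars, while Mup19, Mup11 and Mup7 widen in both HFD-KO bars.

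A sum over genes that share windows does not depend on how the reads counted on them were divided among them, although reads shared with transcripts outside the sum, or left out of counting, could still alter it. The 16 tested Mup genes joined by shared windows summed to 8693 and 6547 CPM in HFD-WT and 16300 and 13685 CPM in HFD-KO livers. The HFD-KO mean was 1.97-fold the HFD-WT mean (log2 ratio 0.98), with both HFD-KO libraries above both HFD-WT libraries. Mup20, Mup3 and Mup21 together summed to 8811 and 8110 CPM in HFD-WT and 9819 and 6212 CPM in HFD-KO livers, with overlapping groups and a ratio of 0.947.

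Within the 16 genes, the 6 higher copies among those described summed to 2196 and 1391 CPM in HFD-WT and 6283 and 5581 CPM in HFD-KO livers, a 3.31-fold higher mean. The 9 copies outside the 10 genes summed to 5249 and 4045 CPM against 8912 and 6859 CPM, a 1.70-fold higher mean. Reads on genes other than the 10 made up between 27.6% and 34.5% of the Mup reads.

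The remaining 12 Mup genes were not chosen by name, although they belong to the same contrast and share reads with the genes that were. All 9 that were tested had both HFD-KO libraries above both HFD-WT libraries, against 20.5% of all genes tested, with a median log2 fold change of 1.36. By edgeR none of the 9 had an adjusted p under 0.05, 8 had an unadjusted p under 0.05 against 4.25% of all genes tested in that direction, and by DESeq2's Wald test 3 passed the adjusted threshold (Mup2, Mup22 and Mup16). How many of the 9 edgeR called with 1 library left out depended on which library that was. Mup16 came closest by edgeR, with 222 and 197 CPM in HFD-WT and 465 and 353 CPM in HFD-KO livers (log2 fold change 0.97 ± 0.14, adjusted p = 0.0926).

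Mup22 was given the most reads of these copies and has no window of its own. It had 4658 and 3671 CPM in HFD-WT and 7698 and 5866 CPM in HFD-KO livers (log2 fold change 0.70 ± 0.18, edgeR adjusted p = 0.330). Per length, it was at 4471 CPM per kilobase in HFD-WT and 7281 CPM per kilobase in HFD-KO livers on average. By these counts it and Mup20 stood highest, but the level of Mup22 depends on how shared reads were divided, which is not given. Mup14, Mup1, Mup12, Mup2 and Mup8 had log2 fold changes between 1.36 and 1.63, with HFD-WT libraries that differed from each other by between 1.56-fold and 2.70-fold. Mup13 (0.62 ± 0.15) and Mup10 (0.24 ± 0.12) were nearer to Mup18. Mup10, which shares 85.0% of its windows with Mup22, was the 1 gene of the 9 with an unadjusted p above 0.05. Mup4, Mup5 and Mup6, named after their values were seen, had at most 8 reads in a library and were not tested.

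**Figure D3:**
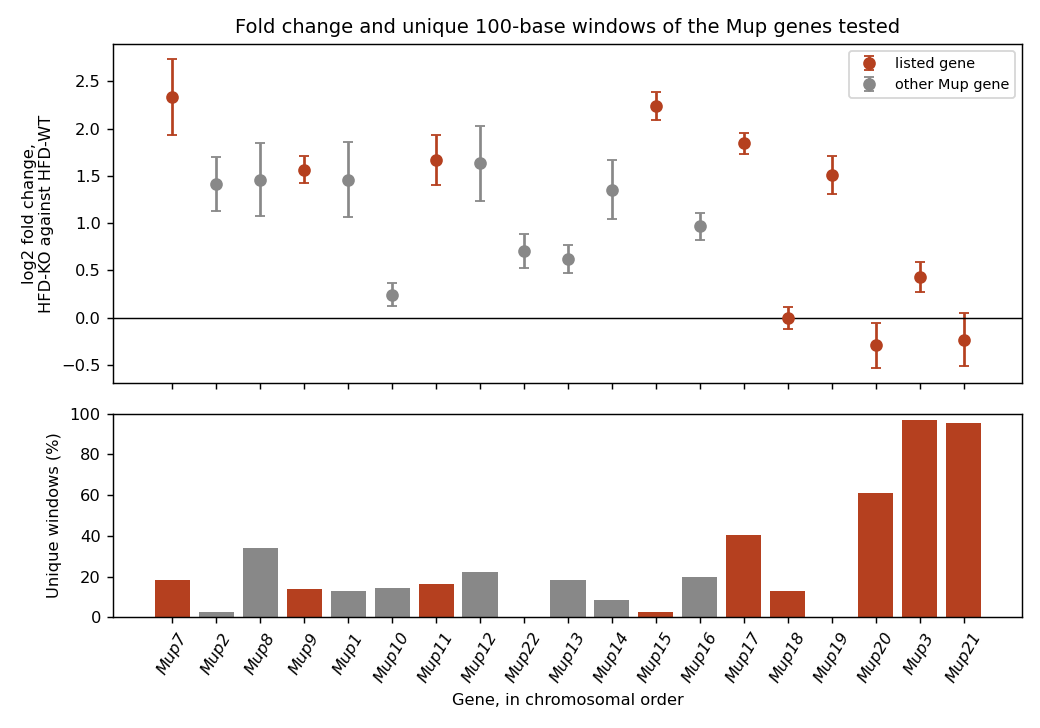
Top, log2 fold change between HFD-KO and HFD-WT livers (points) with its standard error (bars, n = 2 libraries per group) for the 19 Mup genes tested, in chromosomal order, with the 10 genes described in red and the others in grey. Bottom, percent of 100-base transcript windows found in no other gene, where Mup3 (97.1%), Mup21 (95.5%) and Mup20 (61.2%) have the highest bars and log2 fold changes of 0.43, -0.24 and -0.30.

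Other lipocalins made in liver, among them the retinol carrier Rbp4 and the apolipoprotein Apom, were compared as relatives of the MUPs outside the cluster. By edgeR none of the 9 tested passed an adjusted or an unadjusted p under 0.05, and by DESeq2 none passed the adjusted threshold. Their median log2 fold change was 0.10. Obp2a, an odorant-binding lipocalin, had 2.73 and 1.93 CPM in HFD-WT and 1.86 and 13.2 CPM in HFD-KO livers, so that HFD-KO 2 alone was high (edgeR adjusted p = 0.575). Apom (log2 fold change 0.23, adjusted p = 0.652) and C8g, a subunit of complement component 8 (0.15, adjusted p = 0.668), differed little. The number of lipocalins past the adjusted threshold with 1 library left out depended on which library that was, as did the number over all genes.

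Male-biased liver genes were examined because the MUPs are themselves higher in males. This list and the others were chosen with earlier results of these data known, so counts of their genes are a description. Of 12 tested, 1 passed the adjusted threshold, where 0.054% of all genes tested were called higher. This was Slco1a1, an organic anion transporter of the hepatocyte membrane. It had 18.5 and 17.9 CPM in HFD-WT and 59.3 and 58.0 CPM in HFD-KO livers (log2 fold change 1.69 ± 0.08, edgeR adjusted p = 0.0013). Without HFD-WT 2 it did not pass, and how many genes of the list passed depended on which library was left out. Of the 12 genes, 6 lay higher and 2 lower in both HFD-KO libraries, against 20.5% and 20.3% of all genes tested. The median log2 fold change of the 12 genes was 0.27. At an unadjusted p under 0.05 there were 4, all in the higher direction, against 4.25% of all genes tested.

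Next to Slco1a1 these were Susd4, a complement regulator (log2 fold change 0.77, adjusted p = 0.0871), Hsd3b5, a steroid dehydrogenase typical of male liver (4.88, adjusted p = 0.262), and Cyp7b1, an oxysterol hydroxylase (0.69, adjusted p = 0.378). Hsd3b5 had 0.483 and 0.473 CPM in HFD-WT livers but 25.8 CPM in HFD-KO 1 and 2.51 CPM in HFD-KO 2. Cyp7b1 was likewise highest in HFD-KO 1 (86.8 CPM, against 53.4 CPM in HFD-KO 2 and between 43.4 and 43.5 CPM in HFD-WT).

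Among 19 female-biased genes 12 could be tested, and by edgeR none passed the adjusted threshold, with 5 higher and 2 lower at an unadjusted p under 0.05. Of all genes tested, 4.25% were higher and 4.73% lower at an unadjusted p under 0.05. DESeq2, which called 0.463% of all genes lower, called 1 of the 12, Cyp2a4, a steroid hydroxylase, which had 21.2 and 18.9 CPM in HFD-WT and 9.95 and 7.37 CPM in HFD-KO livers (log2 fold change -1.21 ± 0.15, edgeR adjusted p = 0.0578). Cyp2c69 and Cyp2c40, cytochromes P450 of the Cyp2c family, differed in the opposite direction. Cyp2c69 had 0.0345 and 0.109 CPM in HFD-WT and 0.494 and 5.11 CPM in HFD-KO livers (edgeR adjusted p = 0.326), and Cyp2c40 had 0.691 and 0.727 CPM against 1.48 and 8.46 CPM (adjusted p = 0.360).

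In both genes HFD-KO 2 held most of the difference. The same library was alone high for Cux2, a repressor typical of female liver, at 10.4 CPM against at most 0.483 CPM in the other 3, and for Cyp3a44, with 34 reads against 1 in each other library, both named after their values were seen. Other genes of the list went otherwise, of which Hao2, Acot3 and Abcd2 were likewise named after their values were seen. HFD-KO 2 was the lowest library for Cyp2a4 (7.37 CPM) and Hao2 (1.05 CPM). Acot3 (62.7 against 56.1 CPM) and Abcd2 (39.0 against 36.3 CPM) were higher in HFD-KO 1 than in HFD-KO 2. HFD-KO 2 is also the library in which Mup20 and Mup21 were lowest, and a link was not tested. Which female-biased genes passed the adjusted threshold by edgeR with 1 library left out depended on that library, and calls over all genes did so too.

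Genes of growth hormone signalling, from its receptor Ghr to the target Igf1, were compared next, and the median log2 fold change of the 11 was 0.29. By edgeR none of the 11 passed the adjusted threshold, and DESeq2 called none. At an unadjusted p under 0.05 by edgeR there were 3, against 4.25% of all genes tested in the higher direction. The 3 were Stat5a, which relays the hormone's signal to the nucleus (20.9 and 20.5 against 24.7 and 26.0 CPM, adjusted p = 0.370), Igfals, which keeps IGF1 in the circulation (91.6 and 77.2 against 101 and 110 CPM, adjusted p = 0.437), and Igf1 (348 and 327 against 379 and 422 CPM, adjusted p = 0.509). All 3 were higher in both HFD-KO libraries, with log2 fold changes between 0.24 and 0.32. Calls among the 11 with 1 library left out depended on which library that was, as did calls over all genes.

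Of 14 regulators of liver transcription, hormone receptors and hepatocyte factors, none passed the adjusted threshold by edgeR or DESeq2. By edgeR 1 was lower at an unadjusted p under 0.05, against 4.73% of all genes tested. This was Onecut1, a hepatocyte homeobox factor, with 34.8 and 9.05 CPM in HFD-WT and 5.01 and 11.3 CPM in HFD-KO livers (adjusted p = 0.544), where the groups overlapped and HFD-WT 1 alone was high. Foxa3, a forkhead factor of hepatocytes, followed (log2 fold change 0.24, adjusted p = 0.559). Regulators past the adjusted threshold with 1 library left out likewise depended on that library, as did genes of the whole set tested. The median log2 fold change of the list was 0.04.

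**Figure D4:**
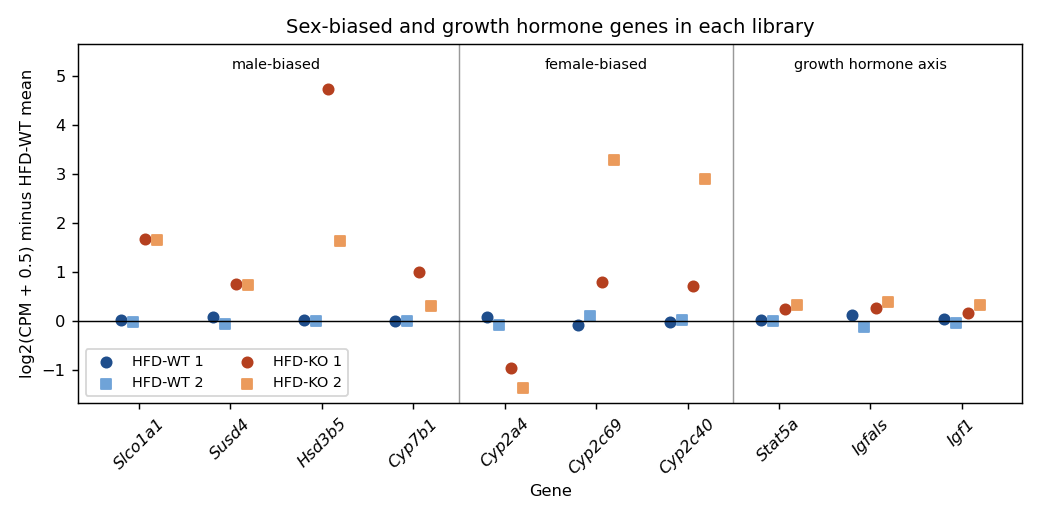
Difference of log2(CPM + 0.5) from the HFD-WT mean for the named male-biased, female-biased and growth hormone axis genes, with 1 point per library. Slco1a1 and Susd4 have both HFD-KO points close together above the HFD-WT points, Hsd3b5 is highest in HFD-KO 1 (25.8 CPM), and Cyp2c69 and Cyp2c40 are highest in HFD-KO 2 (5.11 and 8.46 CPM).

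The centred log2 profile of the 10 genes over the 4 libraries, on average -0.37 and -0.74 in HFD-WT and 0.67 and 0.44 in HFD-KO livers, was compared with 11746 other genes. The nearest by root mean square difference were Xntrpc (0.109), Gadd45b (0.144) and Cyp2c54 (0.156). Xntrpc had between 10 and 42 reads in a library. Gadd45b, a stress-induced gene, had 3.97 and 3.74 CPM in HFD-WT and 10.2 and 7.08 CPM in HFD-KO livers. Cyp2c54, a cytochrome P450, had 51.5 and 37.6 CPM in HFD-WT and 129 and 108 CPM in HFD-KO livers. With 4 libraries, likeness of profile is a description only.

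Markers of the cell types in liver are given beside these values. No marker of any list passed the adjusted threshold by edgeR, and over all genes tested 20.3% lay lower and 20.5% higher in both HFD-KO libraries. Of 8 Kupffer cell markers, 7 were lower in both HFD-KO libraries (7 also at an unadjusted p under 0.05), and the list summed to 316 and 405 CPM in HFD-WT and 261 and 254 CPM in HFD-KO livers. Of 5 stellate cell markers 4 were lower in both (310 and 354 against 280 and 238 CPM summed), and of 5 erythroid genes 4 were higher in both (757 and 600 against 811 and 1146 CPM summed). Endothelial markers mostly overlapped, with 1 of 6 lower in both (212 and 233 against 207 and 220 CPM summed), as did cholangiocyte markers, with 1 of 5 lower in both (71.5 and 90.5 CPM summed against at most 59.4 CPM in HFD-KO livers). The hepatocyte markers summed to 86971 and 86759 CPM in HFD-WT and 88119 and 102677 CPM in HFD-KO livers, with 4 of 9 higher in both. The part of cell make-up in the Mup differences was not tested.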

How the data were processed

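Liver RNA of 2 HFD-WT and 2 HFD-KO libraries was prepared by the authors with the directional kit of MGI Tech and sequenced as paired 100-bp reads. Reads were aligned with the MGI tool to mm10, and genes were quantified in Partek Genomics Suite with GENCODE annotation. Versions, strand use and treatment of reads with several alignments are not given in the sources used here. The submitters' processing notes also name GRCm39, the build on which the table places its genes.

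The deposited counts are whole reads per gene without normalization, and only these were tested. The RPKM values, which the authors scaled by exon length and library total, served only to obtain gene lengths. The TPM values of the authors and the deposited CPM values, a score on an adjusted library size, were not used, and the CPM given here were computed from the counts with TMM factors.

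Genes were kept by filterByExpr (12967 of 25655) and tested in R 4.3.3 with edgeR 4.0.16 (TMM, quasi-likelihood test, two-sided, Benjamini-Hochberg adjustment, threshold 0.05), or with DESeq2 1.42.0 as an alternative. Groups came from the sample labels. With 2 libraries per group the smallest exact permutation p is 0.333, so none was run. The procedure was tested on simulated data. The members and the lists of genes were chosen with earlier results of these data known.

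The genes named were the 10 chosen ones, other Mup genes with at least 10 reads in a library, from each of 5 lists those past the threshold plus up to 3 with the smallest p, Adarb1, and the 3 genes with the nearest profile over libraries (log2 with 0.5 CPM added, mean of at least 1 CPM). A result that this rule would name is not reported here. Windows of 100 bases were compared by exact match over the transcripts of GENCODE M21. Promoters came from RefSeq, and transcripts and promoters were aligned with Biopython 1.88. Identity was counted over aligned bases, with gaps left out. Sums over the 16 window-sharing genes leave out Mup5, which had at most 6 reads.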

Additional observations from a re-analysis of the deposited data

How the results depend on the processing

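The summed Mup level kept its direction under every alternative run. Both HFD-KO sums lay above both HFD-WT sums, so leaving 1 library out could not have reversed that direction. The log2 ratio of the summed level was 0.52, and 0.47 under library size alone as scaling. It was 0.31 without HFD-KO 1 and 0.70 without HFD-KO 2, the extremes with 1 library left out. Of 90 recomputed fold changes of the 10 genes, 84 moved by less than the replicate spread and 6 by more, each of these 6 with 1 library left out. With 2 libraries per group that spread is close to or above the shift from leaving 1 out, and the other settings refit the same libraries. The tally was thus largely fixed by the design and does not measure stability. No called value was reversed, but Mup18, Mup20 and Mup21, which were not called, changed sign in some fits. Counts of calls depended strongly on the processing.

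Over all genes, 10 had an adjusted p under 0.05, against 6 with library size alone, 162 without a filter on low counts, 115 by DESeq2, 20 with a replicate block, and between 0 (without HFD-WT 2) and 705 (without HFD-KO 1) with 1 library left out. Of the 10 Mup genes 3 passed, against 6 without the filter, 5 by DESeq2, 5 with the replicate block and between 0 and 8 with 1 library left out. Of the other Mup genes 0 passed, against 7, 3 and 3 under the same 3 settings and between 0 and 8 with 1 library left out. Among male-biased genes 1 passed, against 3 without the filter, 2 by DESeq2 and between 0 and 6 with 1 library left out. Among female-biased genes 0 passed, against 3 without the filter, 1 by DESeq2, 1 with the replicate block and between 0 and 6 with 1 library left out. With 1 library left out, between 0 and 4 lipocalins, between 0 and 4 growth hormone genes and between 0 and 2 regulators passed. A lone library is then assumed to vary like the other group, and the cause of these differences was not tested.

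Libraries with the same replicate number showed little shared deviation over all genes (correlation of deviations across genes -0.087). This value cannot exclude a shared batch or litter that acts on some genes. The labels give no pairing, so the block result is not read as a paired result. With 2 libraries per group the spread of a gene rests mainly on that of all genes, and reads that fit several copies limit any single-copy value.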

Other observations

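Plasma and B cell genes summed to 5.25 and 4.04 CPM in HFD-WT and to 19.3 and 4.86 CPM in HFD-KO livers, so HFD-KO 1 alone was high. HFD-KO 1 was also the library with the highest levels of Selenbp2, at 107 CPM against between 18.2 and 35.9 CPM in the others, and of Bcl6, a transcriptional repressor that responds to growth hormone, at 46.8 CPM against between 14.4 and 29.8 CPM. Both genes belong to the lists described and were named after their values were seen. Socs2, a feedback inhibitor of growth hormone signalling, was lowest in HFD-WT 2 (4.11 CPM) and HFD-KO 1 (5.36 CPM) and highest in HFD-WT 1 (12.4 CPM) and HFD-KO 2 (17.2 CPM), so replicates of 1 genotype differed more than the genotypes did. Cish, another gene of this kind, had 24.8 and 6.18 CPM in HFD-WT and 5.58 and 11.3 CPM in HFD-KO livers.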
